A study of Mus musculus with 6 samples.

Results

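The cell proliferation genes are 34 genes chosen by name, 13 of which act in S phase, when DNA is copied, and 21 in G2 and mitosis, when chromosomes are prepared and separated. All 34 of them were found among the 23420 gene symbols of the table, and all 34 passed the filter on low counts that left 15096 genes for testing. RNA was measured by bulk sequencing of 6 whole aortic roots from the strain C57Bl6/J, of which 3 carry the label Sost+/+ and 3 the label Sost-/- (a knockout of both copies of the sclerostin gene). The labels name no other altered gene. All 6 roots came from animals aged 12 months that had been moved from standard chow to a high-cholesterol diet at 4 months and kept on it for 8 months. No animal without that diet and none of another age was among the samples, and since the labels do not tie libraries to animals, a p-value covers the variation among these 6 dissected roots and no more. Libraries are numbered 1 to 3 within each label.

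In the roots labelled Sost-/-, nearly all G2 and mitotic genes had a lower mean level, of which 1 passed the test, and the S-phase genes lay on both sides of no change. Of the 21 mitotic genes, 20 had a log2 fold change below 0, with a median of -0.32, where 48.7% of all tested genes lay below 0 and their median was 0.01. Of these 21, 1 passed the test (4.76%), Cdc20, the activator of the ubiquitin ligase that starts anaphase. Cdc20 fell from 5.58 ± 0.379 to 3.21 ± 0.331 CPM (SD, n = 3, with CPM as counts scaled to a common library size). Of all tested genes, 2.55% passed in either direction and 0.371% passed and were lower. Of the 13 S-phase genes, 0 passed edgeR's test (1 at an unadjusted p under 0.05), 7 lay below 0 and 6 above, with a median of -0.05.

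A dividing cell first licenses its replication origins by loading the MCM helicase, then fires them and copies its DNA with the sliding clamp PCNA and newly made nucleotides. Rising cyclin A and cyclin B then drive CDK1, and with the Polo and Aurora kinases the cell builds a spindle, attaches its kinetochores and, once the spindle checkpoint is satisfied, degrades cyclin B through the anaphase-promoting complex (APC/C). S-phase genes are largely controlled by E2F factors, and G2 and mitotic genes by complexes that bind a short promoter element, the cell cycle genes homology region (CHR), together with the factor NF-Y at CCAAT boxes. Most cells of an adult artery, valve or heart muscle are not dividing, so transcripts of these genes in whole tissue come as a rule from a minority of cells. In bulk RNA, fewer cells in cycle and less of each transcript per cycling cell cannot be told apart.

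Promoters of the S-phase and mitotic genes were compared for the letters of these elements. RefSeq windows from 250 bases before to 50 bases after a gene's start (build GRCm38.p6, the assembly of mm10) were at hand for 11 S-phase genes, with 12 windows, and for 17 mitotic genes, with 17 windows. No window was used for Mcm4, Gins2, Ccna2, Aurkb, Kif20a and Tpx2. Each window was searched on both strands for the CHR letters TTTGAA or TTCGAA, for CCAAT, and for the E2F letters TTTCCCGC, TTTGGCGC or TTTCGCGC, whose matches may overlap each other. CHR letters were in 13 of 17 mitotic windows (76.5%) and in 2 of 12 S-phase windows (16.7%), against 19.2% of all 32851 windows. CCAAT was in 15 of the mitotic and 9 of the S-phase windows, against 37.4% of all windows. E2F letters were in 5 of the S-phase windows and in 1 mitotic window, that of Cdk1, against 1.84% of all windows. A match describes letters, not a bound site.

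The stretches printed here end at the gene's start or at its first annotated exon, written 5′ to 3′ on the gene's own strand with every match in capitals. Cdc20 (chr4:118437353-118437503, minus strand) is shown as the gene that passed the test, Cdk1 (chr10:69352939-69353072, minus strand) because it holds all 3 kinds of match, and Mki67 (chr7:135716380-135716539, minus strand) and Top2a (chr11:99024190-99024349, minus strand) because their CHR letters are repeated. Mcm5 (chr8:75109349-75109508, plus strand) and Mcm6 (chr1:128359706-128359865, minus strand) stand for the S-phase genes with E2F letters and no CHR letters.
Cdc20: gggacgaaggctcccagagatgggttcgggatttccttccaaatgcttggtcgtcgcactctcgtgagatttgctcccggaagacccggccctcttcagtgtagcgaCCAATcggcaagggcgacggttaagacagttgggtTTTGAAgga
Cdk1: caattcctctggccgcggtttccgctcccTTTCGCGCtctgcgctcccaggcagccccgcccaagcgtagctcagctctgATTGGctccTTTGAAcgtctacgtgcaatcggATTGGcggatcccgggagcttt
Mki67: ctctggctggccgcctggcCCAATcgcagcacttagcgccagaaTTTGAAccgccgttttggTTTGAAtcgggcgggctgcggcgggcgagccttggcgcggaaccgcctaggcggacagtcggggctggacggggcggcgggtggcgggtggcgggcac
Top2a: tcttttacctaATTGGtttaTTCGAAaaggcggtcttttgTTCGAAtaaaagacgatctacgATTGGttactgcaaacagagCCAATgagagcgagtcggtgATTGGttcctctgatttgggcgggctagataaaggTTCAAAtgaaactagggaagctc
Mcm5: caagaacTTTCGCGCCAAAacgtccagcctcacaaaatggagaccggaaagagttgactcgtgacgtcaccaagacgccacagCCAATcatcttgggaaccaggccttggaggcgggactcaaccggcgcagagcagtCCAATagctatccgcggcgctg
Mcm6: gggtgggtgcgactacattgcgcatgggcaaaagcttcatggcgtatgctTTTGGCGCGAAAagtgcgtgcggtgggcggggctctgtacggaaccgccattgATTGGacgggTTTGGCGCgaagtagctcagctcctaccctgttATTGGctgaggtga
Capitals in the first 4 mark CHR letters beside CCAAT boxes, each in either orientation, and in Cdk1 also an E2F match. The 2 MCM stretches hold E2F and CCAAT letters alone. The 13 mitotic genes with CHR letters had a median log2 fold change of -0.32 and the 4 without (Nusap1, Cenpe, Birc5 and Ccnb1) one of -0.56, and both sets include genes far from their median.

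Total counts ran from 37023586 to 48172863 a library. At an adjusted p of 0.05, 385 genes passed edgeR's quasi-likelihood test with Benjamini-Hochberg adjustment (2.55% of tested genes), 329 higher (2.18%) and 56 lower (0.371%). Counts of the targeted gene were not lower under the label Sost-/-. Sost, on chromosome 11 from 101962458 to 101967015 (mm10), had 354, 621 and 274 counts under the label Sost+/+ and 2284, 1063 and 513 under Sost-/- (log2 fold change 1.56, SE 0.48, edgeR adjusted p = 0.124). The groups overlap, and counts per gene do not show which part of the gene was read. Every direction given here is therefore that of the labelled libraries. Markers of the tissue also differed between the labels. The summed level of 7 smooth muscle markers was 1002 to 2136 CPM in the Sost+/+ libraries and 3156 to 4843 in the Sost-/- ones, and that of 7 cardiomyocyte markers 68130 to 74236 and 45763 to 57731. Library sizes for CPM were scaled by TMM, edgeR's normalisation.

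**Figure D1:**
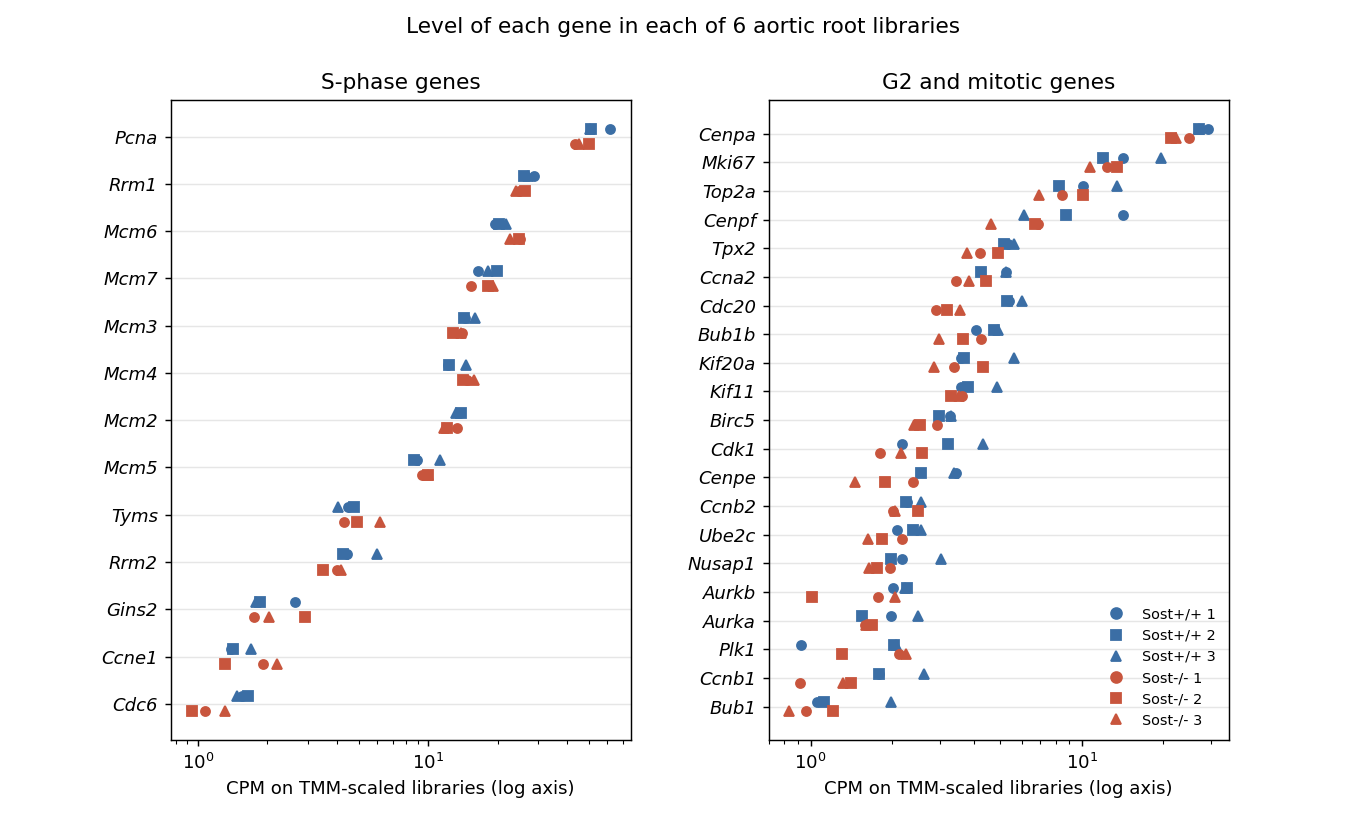
Level of each of the 13 S-phase genes (left) and 21 G2 and mitotic genes (right) in CPM on a log axis, 1 point per library, blue for Sost+/+ and red for Sost-/-, with marker shape for the replicate. The red points of Cdc20 lie at 2.90 to 3.56 CPM and the blue ones at 5.32 to 6.01, while the points of most S-phase genes are mixed.

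Among S-phase genes the MCM helicase did not move one way. MCM2 to MCM7 form the hexamer that unwinds DNA at each fork, and 3 of its 6 genes lay below 0 and 3 above. Mcm6 had 19.4, 20.2 and 21.7 CPM in the Sost+/+ libraries and 25.0, 24.8 and 22.7 in the Sost-/- ones. It is the one member of the 34 whose Sost-/- libraries all lay above the Sost+/+ ones, as did 14.3% of tested genes, and its log2 fold change of 0.24 (SE 0.09) did not pass (edgeR adjusted p = 0.183). Mcm4 showed 12.2, 12.3 and 14.5 CPM against 14.8, 14.1 and 15.8, so that the groups overlap, with a log2 fold change of 0.19. Mcm3 went the other way without overlap, at 14.4, 14.3 and 15.9 against 13.9, 12.9 and 13.9 CPM, a log2 fold change of -0.13. Mcm2 (11.7 to 13.8 CPM over the 6 libraries, log2 fold change -0.13), Mcm7 (15.3 to 19.9, -0.05) and Mcm5 (8.70 to 11.2, 0.03) had overlapping groups. The 6 subunits together summed to 89.7 ± 4.85 CPM in Sost+/+ and 92.3 ± 0.840 in Sost-/- libraries (SD, n = 3).

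The clamp, initiation and nucleotide genes gave mixed values as well. Pcna, the sliding clamp of DNA polymerases, had 61.3, 50.7 and 50.2 CPM in the Sost+/+ and 43.3, 50.1 and 45.1 in the Sost-/- libraries (log2 fold change -0.23, SE 0.11, edgeR adjusted p = 0.263). The groups do not overlap, but Sost-/- library 2 lies just under the lowest Sost+/+ one. Cdc6, which loads the MCM ring on origins, was the lowest S-phase member by fold, with 1.55, 1.65 and 1.48 CPM against 1.07, 0.937 and 1.31 (log2 fold change -0.49, SE 0.25, edgeR adjusted p = 0.301). Here too all Sost-/- libraries lay below, although each holds only 38 to 55 counts. Gins2, a subunit of the complex that activates the helicase, ran from 1.75 to 2.91 CPM with overlap (log2 fold change 0.09). Its exons share 67.3% of their length with the gene Gse1 on the other strand, and although the library kit keeps the strand, the setting used in counting is not given in the sources used here, so its counts are uncertain.

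Rrm2, the cell-cycle regulated subunit of ribonucleotide reductase, had 4.42, 4.27 and 6.01 CPM against 4.00, 3.50 and 4.18 (log2 fold change -0.33, SE 0.19, edgeR adjusted p = 0.353). Sost+/+ library 3 stands above the rest, and the groups do not overlap. Its larger partner Rrm1 had 28.8, 25.9 and 27.1 against 24.7, 26.2 and 24.0 CPM, with overlap (log2 fold change -0.13). Tyms, thymidylate synthase, ran from 4.06 to 6.18 CPM, highest in Sost-/- library 3 (log2 fold change 0.21). Ccne1, the cyclin of the G1 to S transition, had 1.39, 1.42 and 1.70 CPM against 1.92, 1.31 and 2.20, with the highest log2 fold change of the 34 at 0.27 (SE 0.26, edgeR adjusted p = 0.605). In all, 4 of the 13 S-phase genes lay wholly below (30.8%, against 11.1% of tested genes), namely Mcm3, Pcna, Cdc6 and Rrm2. Of the others 1 lay wholly above and 8 overlapped. By edgeR 0 passed, with 1 at an unadjusted p under 0.05 (Mcm6, higher, as were 11.6% of tested genes). DESeq2, which called 7.98% of tested genes (5.11% higher and 2.87% lower), and limma-voom, which called 2.35% (2.01% higher and 0.338% lower), called 0 of the 13 as well.

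**Figure D2:**
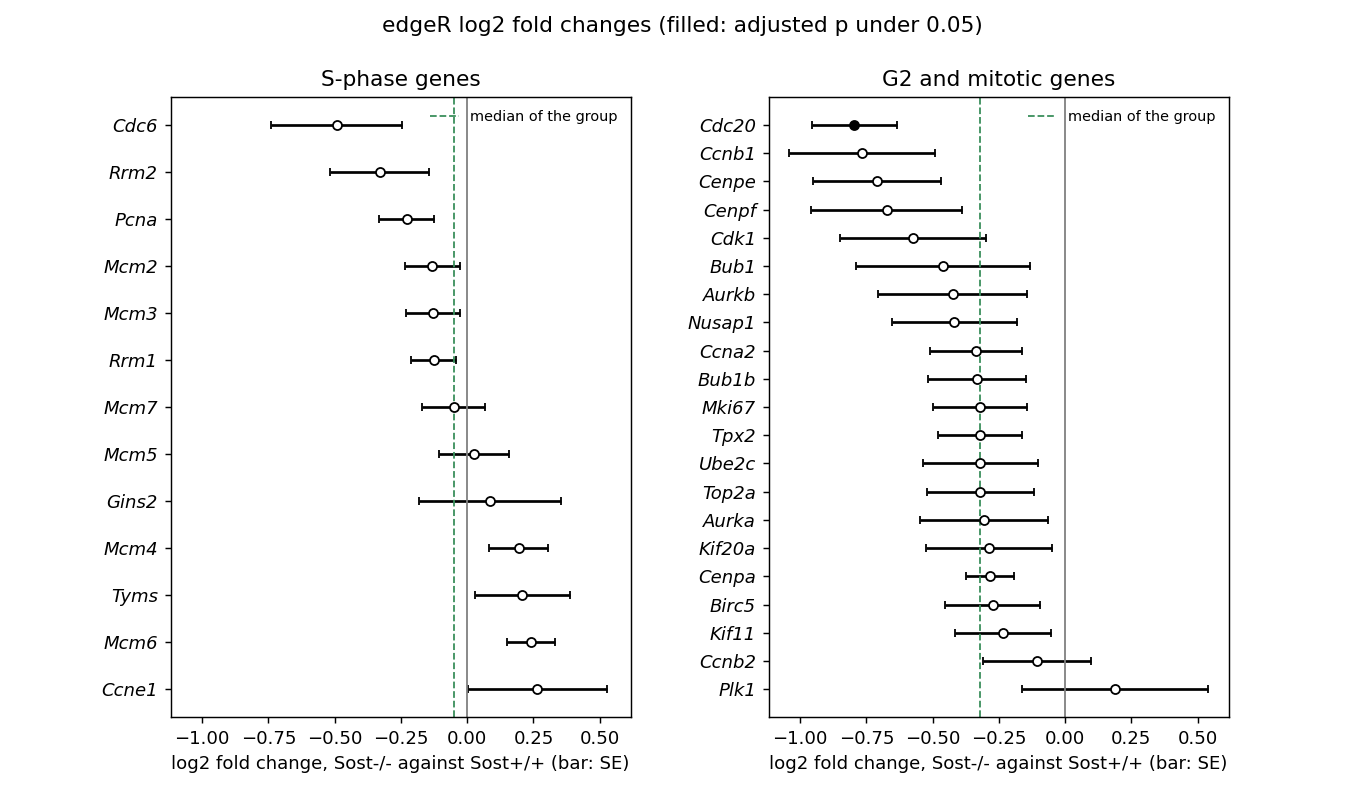
edgeR log2 fold change of each gene, Sost-/- against Sost+/+, with its SE as a bar, for S-phase genes (left) and G2 and mitotic genes (right); filled points have an adjusted p under 0.05 and the dashed line is the median of the group. The mitotic points gather around -0.32 with Plk1 alone above 0, while S-phase points lie on both sides of 0.

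The APC/C genes held the one member that passed. Cdc20 (ENSMUSG00000006398.15, chromosome 4, 118432901 to 118437352, minus strand, GENCODE M21 on GRCm38) had 5.40, 5.32 and 6.01 CPM in the Sost+/+ libraries and 2.90, 3.18 and 3.56 in the Sost-/- ones, from 209 to 241 and 124 to 149 counts. The 2 ranges are far apart, and the level in Sost-/- was 57.6% of that in Sost+/+ (log2 fold change -0.80, SE 0.16, edgeR adjusted p = 0.0406). By DESeq2 the adjusted p was 0.00125. With any 1 of the 6 libraries left out its log2 fold change stayed between -0.87 and -0.73, and it no longer passed (edgeR adjusted p = 0.0733 to 0.132). Of the tested genes, 0.371% passed and were lower, which 1 of 21 mitotic genes did here. Ube2c, the ubiquitin-conjugating enzyme of the same ligase, had 2.09, 2.39 and 2.55 CPM against 2.17, 1.83 and 1.62 (log2 fold change -0.32), with overlap. Tnnc2, a muscle gene on the other strand, shares 22.8% of its exon length.

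Cyclin and CDK genes lay below 0 in all 4 cases. Ccnb1, cyclin B1, the mitotic partner of CDK1, had 1.79, 1.78 and 2.61 CPM against 0.911, 1.41 and 1.31 (log2 fold change -0.76, SE 0.28, edgeR adjusted p = 0.170). The groups do not overlap, and the counts behind them are few, 70 to 95 and 39 to 57. Cdk1 itself had 2.18, 3.20 and 4.34 CPM against 1.80, 2.57 and 2.15 (log2 fold change -0.57, SE 0.28, edgeR adjusted p = 0.282), so that Sost+/+ libraries differ among themselves by as much as the groups. Ccna2, cyclin A2, which acts from S phase into mitosis, was the most abundant of the 4 in CPM, with 5.27, 4.25 and 5.24 against 3.43, 4.42 and 3.84 (log2 fold change -0.34). Ccnb2, the other mitotic B cyclin, ran from 2.24 to 2.55 CPM in Sost+/+ and 2.01 to 2.49 in Sost-/- libraries (log2 fold change -0.11).

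Kinase and checkpoint genes had fold changes below 0 with 1 exception. Birc5, survivin of the chromosomal passenger complex, had 3.25, 2.98 and 3.29 CPM against 2.92, 2.54 and 2.41, without overlap (log2 fold change -0.27, SE 0.18, edgeR adjusted p = 0.427). Aurkb, the kinase of that complex, had 2.02 to 2.26 CPM in Sost+/+ and 1.01 to 2.05 in Sost-/- libraries (log2 fold change -0.42), the lowest in Sost-/- library 2. Aurka, the spindle pole kinase, had 1.55 to 2.50 against 1.59 to 1.68 CPM (log2 fold change -0.31), so that its Sost-/- values lie within the Sost+/+ range. Plk1, the Polo kinase of mitotic entry, was the one mitotic gene above 0, with 0.919, 2.03 and 2.06 CPM against 2.13, 1.31 and 2.24 (log2 fold change 0.19, SE 0.35, edgeR adjusted p = 0.801). That value rests on the low Sost+/+ library 1, without which it is -0.12. The checkpoint gene Bub1b had 4.06, 4.76 and 4.91 CPM against 4.25, 3.65 and 2.98 (log2 fold change -0.33), and its relative Bub1 had 1.05, 1.12 and 1.98 against 0.958, 1.21 and 0.835 (log2 fold change -0.46), both with overlap. Bub1 rests on Sost+/+ library 3, without which it is -0.13, and Bub1b is -0.21 without Sost-/- library 3.

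Kinetochore genes had the lowest median of the role groups with more than 2 genes, -0.67, which is the value of Cenpf. Cenpa, the histone H3 variant that marks centromeres, had 29.1, 27.1 and 27.1 CPM against 24.8, 21.4 and 22.3, a small difference with little spread (log2 fold change -0.28, SE 0.09, edgeR adjusted p = 0.138). Cenpe, the kinetochore motor, had 3.43, 2.54 and 3.38 CPM against 2.38, 1.88 and 1.46 (log2 fold change -0.71, SE 0.24, edgeR adjusted p = 0.154). Neither gene's groups overlap. Cenpf, a large kinetochore and nuclear matrix protein, had 14.1, 8.77 and 6.12 CPM against 6.87, 6.74 and 4.63 (log2 fold change -0.67, SE 0.29, edgeR adjusted p = 0.228). Its Sost+/+ library 1 is far above the rest, and without that library the value is -0.31. Cenpa is then at -0.26 and Cenpe at -0.65, so that the group's median is still the value of Cenpf. Without the same library Ccna2, Ccnb1, Ccnb2 and Cdk1 lie at -0.30, -0.87, -0.15 and -0.81. The rank of the kinetochore group thus rests on that library.

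Spindle and chromatin genes lay near the median of the mitotic group. Tpx2, the spindle assembly factor that activates Aurora A, had 5.34, 5.16 and 5.63 CPM against 4.23, 4.91 and 3.77, without overlap (log2 fold change -0.32, SE 0.16, edgeR adjusted p = 0.293). Nusap1, a microtubule binder, had 2.18, 1.98 and 3.02 against 1.96, 1.75 and 1.65 (log2 fold change -0.42), the ranges almost touching. The spindle motor Kif11 had 3.59 to 4.89 CPM against 3.28 to 3.62 (log2 fold change -0.23), and the cytokinesis motor Kif20a 3.59 to 5.63 against 2.84 to 4.32 (-0.29), both with overlap. Without Sost+/+ library 3 these values are -0.097 for Kif11, -0.058 for Kif20a and -0.23 for Nusap1. Kif20a shares 29.3% of its exon length with Cdc23 on the other strand. Mki67, the usual proliferation marker Ki-67, had 14.2, 12.0 and 19.6 CPM against 12.4, 13.4 and 10.7 (log2 fold change -0.32, SE 0.18, edgeR adjusted p = 0.347). Top2a, the topoisomerase that untangles chromosomes, had 10.1, 8.24 and 13.5 against 8.46, 10.1 and 6.97 (log2 fold change -0.32). For both, Sost+/+ library 3 is highest, Sost-/- library 3 lowest, and the other 4 overlap. Without Sost+/+ library 3 the log2 fold change is -0.11 for Mki67 and -0.12 for Top2a.

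Of the 21 mitotic genes, 7 lay wholly lower in the Sost-/- libraries, namely Cdc20, Ccnb1, Birc5, Cenpa, Cenpe, Tpx2 and Nusap1. That share of 33.3% is close to the 30.8% of the S-phase genes, against 11.1% of tested genes. Of the mitotic genes 0 lay wholly above and 14 overlapped. At an unadjusted p under 0.05, 5 of the 21 were lower, Cdc20, Ccnb1, Cenpa, Cenpe and Cenpf, as were 8.62% of tested genes, and DESeq2 and limma-voom each called 1, lower, where they called 2.87% and 0.338% of tested genes lower. The SE of a mitotic gene had a median of 0.22, against 0.12 for S-phase genes. A p that misses the threshold does not show that a gene was alike in both groups.

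**Figure D3:**
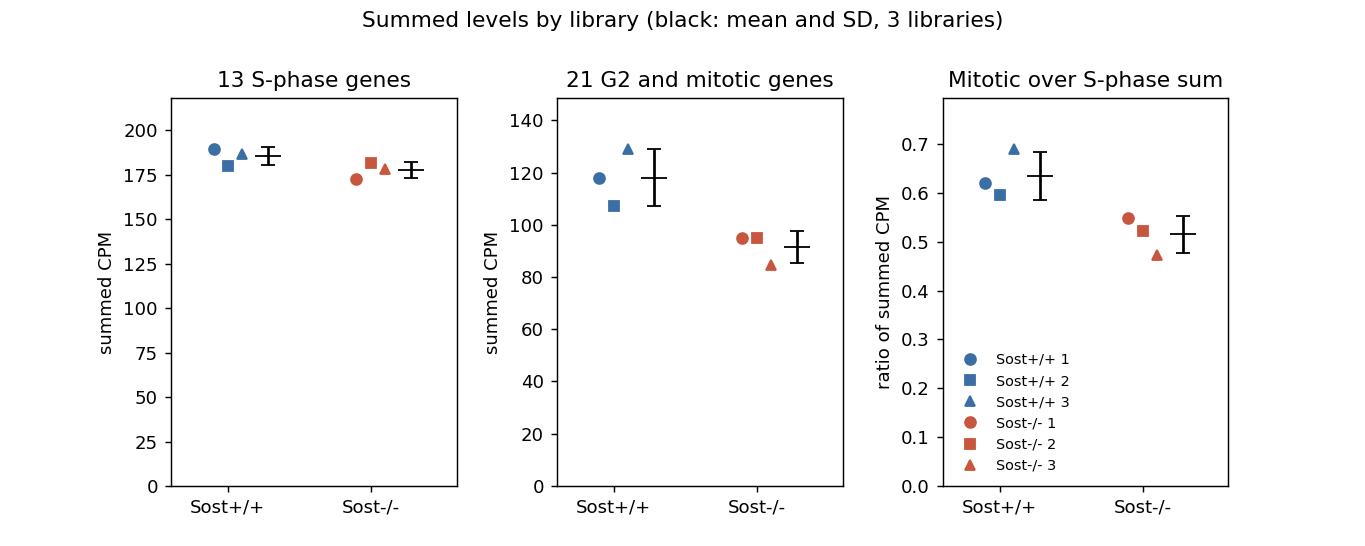
Summed CPM of the 13 S-phase genes (left) and the 21 G2 and mitotic genes (middle) and the ratio of the mitotic to the S-phase sum (right), 1 point per library, with mean and SD of 3 libraries in black and axes from 0. Mitotic sums are 107 to 129 in Sost+/+ and 84.5 to 95.0 in Sost-/- libraries. S-phase sums are 180 to 190 in Sost+/+ and 173 to 182 in Sost-/- libraries, and these ranges overlap.

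The summed levels show the same contrast between the 2 phases. The 21 mitotic genes summed to 118, 107 and 129 CPM in the Sost+/+ libraries and 94.9, 95.0 and 84.5 in the Sost-/- ones, means of 118 ± 11.0 and 91.5 ± 6.03 (SD, n = 3), or 77.5%. The 13 S-phase genes summed to 190, 180 and 187 against 173, 182 and 178 CPM, means of 186 ± 5.01 and 178 ± 4.51, or 95.8%. Abundant genes weigh most in such sums. In the S-phase sum Pcna alone had means of 54.1 CPM in Sost+/+ and 46.2 in Sost-/- libraries. In the mitotic sum Cenpa had means of 27.7 and 22.8 CPM, and Mki67 15.2 and 12.2. Mitotic ranges do not overlap and S-phase ranges do. Within a library the ratio of mitotic to S-phase sum, which no scaling between libraries can change, was 0.621, 0.595 and 0.690 in Sost+/+ and 0.549, 0.523 and 0.474 in Sost-/- libraries. These sums are given without a test, since the genes were chosen with earlier results of these data known.

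Single libraries stood out among the mitotic genes. Sost+/+ library 3 was the highest of 6 for 15 of the 21 mitotic genes (18.1% of tested genes) and for 3 of the 13 S-phase genes. Sost-/- library 3 was the lowest for 11 of the 21 (18.9% of tested genes) and for 2 of the 13. The median over mitotic genes was -0.26 without Sost+/+ library 3, -0.27 without Sost-/- library 3 and -0.44 to -0.36 without any 1 of the other 4. Among the members not yet given without a library, Cdk1 was at -0.32, Aurka at -0.13 and Ccnb2 at -0.052 without Sost+/+ library 3, and Aurkb at -0.18 without Sost-/- library 2. Of the S-phase genes, Rrm2 was at -0.17 and Mcm3 at -0.085 without Sost+/+ library 3, Pcna at -0.14 without Sost+/+ library 1, and Tyms at 0.054 and Ccne1 at 0.10 without Sost-/- library 3.

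Markers of immune cells, some of which divide in tissue, were measured beside these values. At an unadjusted p under 0.05 by edgeR, 8.62% of all tested genes were lower and 11.6% higher. Of 6 T and NK cell markers, 5 were tested and 0 passed by edgeR or DESeq2 (3 lower at an unadjusted p under 0.05 by edgeR). Their summed level was 21.5, 12.2 and 40.8 CPM in Sost+/+ and 8.08, 16.2 and 14.3 in Sost-/- libraries, highest in the same Sost+/+ library 3 as the mitotic genes, with Cd8a (14.1 CPM there) and Nkg7 (9.47 CPM there) leading. Dendritic cell markers (4 genes, 0 passed by either tool) were also highest in that library, at 20.4 CPM against 13.8 to 17.2 in the others. Macrophage markers (7 genes, 0 passed by edgeR with 3 higher at an unadjusted p under 0.05, and 2 higher by DESeq2, which called 5.11% of tested genes higher) summed to 933 to 1058 in Sost+/+ and 864 to 1427 in Sost-/- libraries. Endothelial (5 genes, 787 to 934 against 652 to 932) and B and plasma cell markers (5 genes, 5.04 to 7.14 against 4.74 to 6.12) overlapped, with 0 passed in either list by edgeR or DESeq2 (1 endothelial gene lower at an unadjusted p under 0.05 by edgeR). Fibroblast markers (5 genes, 0 passed by edgeR with 3 higher at an unadjusted p under 0.05, and 2 higher by DESeq2) were at 2363 to 2466 against 2632 to 3159. Neutrophil markers were near 0 (5 genes in the table, 1.76 to 2.03 against 1.70 to 2.41 CPM), as were thymic and epithelial markers (5 genes, 0.605 to 2.31 against 0.444 to 0.740), with Foxn1 at 0 in all libraries. Erythroid markers (4 genes in the table, 108 to 275 against 90.2 to 153) overlapped, with Hba-a1 at 0 in all. Of the 7 smooth muscle markers 5 passed and were higher by edgeR (2.18% of tested genes). Of the 7 cardiomyocyte markers 0 passed by edgeR, with 5 lower at an unadjusted p under 0.05, and 5 were lower by DESeq2 (2.87% of tested genes). The part that any of these cells had in the mitotic values was not tested. The values without Sost+/+ library 3 are no such test, since leaving out a library does not separate cell types.

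Levels per length differed widely among the genes. Divided by merged exon length (GENCODE M21), the mean over the 6 libraries ran from 0.255 CPM per kb for Cdc6 to 20.9 for Pcna among S-phase genes, with a median of 2.37. Pcna thus stood above the next gene, Mcm6 at 4.78, while the other MCM genes lay between 1.86 and 4.03. Among mitotic genes the median was 0.811 CPM per kb, from 0.274 for Bub1 to 4.31 for Cenpa, followed by Cdc20 at 2.35, Ccnb2 at 1.48 and Mki67 at 1.36. Processed pseudogenes of Ccnb1, Ccnb2, Pcna and Tyms are annotated and may share reads with these genes. Exons of Ccna2 share 12.5% of their length with Exosc9 on the other strand.

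**Figure D4:**
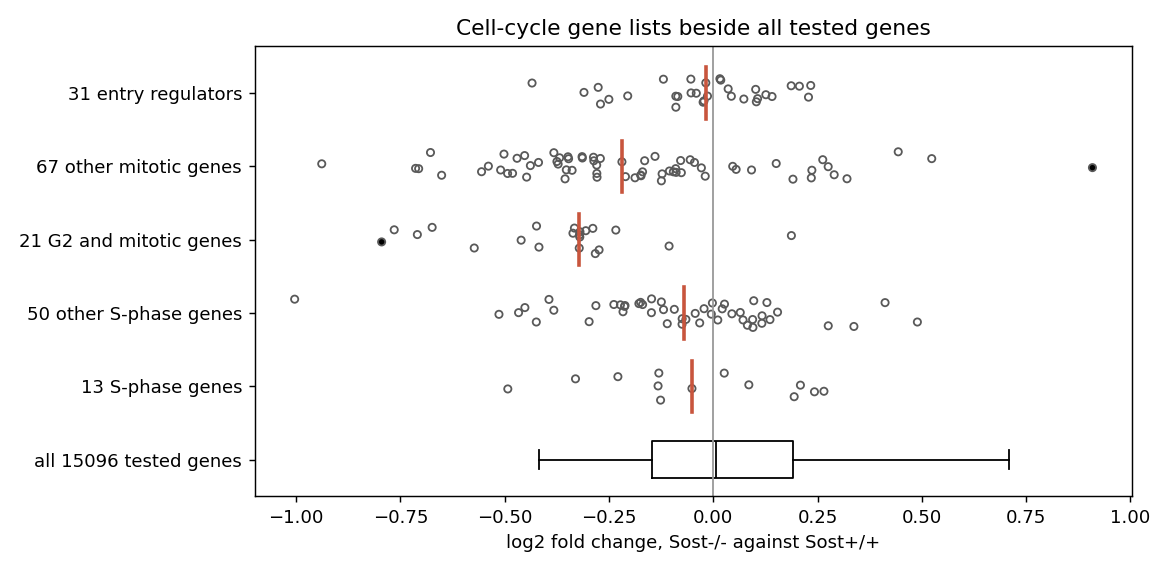
edgeR log2 fold changes, Sost-/- against Sost+/+, of all 15096 tested genes (box for the middle 50% with the median, whiskers from the 5th to the 95th percentile) and, as points, of the 5 cell-cycle lists, with list medians as red bars and genes that passed filled. Both mitotic lists have medians below those of the S-phase lists and of all genes, and the 2 filled points are Cdc20 on the left and Anln on the right.

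Other genes of the cell cycle showed the same order with a wider spread. Of 67 other mitotic genes, 53 lay below 0 (median -0.22), 1 rose and 0 fell by edgeR (2.18% and 0.371% of tested genes). At an unadjusted p under 0.05 by edgeR, 9 were lower and 3 higher (8.62% and 11.6% of tested genes). DESeq2 called 2 lower, Nek2 and Tubb4b, and 2 higher, Anln and Cdc25b (2.87% and 5.11% of tested genes). Anln, which encodes the contractile ring protein anillin, rose from 6.14 ± 1.07 to 11.5 ± 1.49 CPM (SD, n = 3), with 5.45, 7.38 and 5.60 against 12.5, 9.82 and 12.2 in the single libraries (log2 fold change 0.91, SE 0.16, edgeR adjusted p = 0.0279). This was the opposite direction to most of that list, and the call was lost without Sost+/+ library 1 or 3 or Sost-/- library 1 or 3 (edgeR adjusted p = 0.0563 to 0.135). Smooth muscle markers were higher in the same libraries, and their part in the value of Anln was not tested. Of 50 other S-phase genes, 31 lay below 0 (median -0.07) and 0 passed by edgeR, DESeq2 or limma-voom. At an unadjusted p under 0.05 by edgeR, 1 was lower (8.62% of tested genes). The smallest p were those of the flap nuclease gene Fen1 (log2 fold change -0.38, SE 0.14, edgeR adjusted p = 0.185) and the clamp loader gene Rfc4 (-0.30, SE 0.13, adjusted p = 0.252). Of the 50 other S-phase genes, 6 lay wholly lower in the Sost-/- libraries (12%) and 0 wholly higher. Of the 67 other mitotic genes, 16 lay wholly lower (23.9%) and 4 wholly higher. Among all tested genes the shares were 11.1% wholly lower and 14.3% wholly higher.

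Regulators that carry cells from G1 into S phase had a median near that of all genes. Of 31 D and E cyclins, their kinases, E2F, retinoblastoma family and related genes, 17 lay below 0 (median -0.02) and 0 passed by edgeR, DESeq2 or limma-voom. At an unadjusted p under 0.05 by edgeR, 2 were lower and 1 higher (8.62% and 11.6% of tested genes). The repressor E2f6 had 108, 108 and 121 CPM against 100, 91.3 and 87.1 (log2 fold change -0.28, SE 0.09, edgeR adjusted p = 0.148). The retinoblastoma relative Rbl2, part of the complex that represses cell-cycle genes in resting cells, had 55.1, 52.2 and 59.0 against 66.9, 64.6 and 64.0 (log2 fold change 0.23, SE 0.08, edgeR adjusted p = 0.158). Neither gene's groups overlap, and neither passed. In the list 2 genes lay wholly lower and 3 wholly higher, as did 11.1% and 14.3% of tested genes.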

How the data were processed

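Members and lists were chosen with earlier results of these data known. The authors' deposited table holds whole-number counts per gene symbol, and a second deposited table holds a normalized signal, each library's counts over a single scale factor, which was not tested. DRAGEN, HTSeq, DESeq2 and mm10 are named per the submitters' processing notes. Neither their versions nor the annotation and strand option used in counting are given in the sources used here. Genes were kept by filterByExpr (minimum count 10, minimum total count 15). They were scaled by TMM and tested in edgeR 4.0.16 (glmQLFit, glmQLFTest, R 4.3.3) over 15096 genes with Benjamini-Hochberg adjustment at 0.05. SE is the absolute log2 fold change over the square root of F. DESeq2 1.42.0, limma-voom (limma 3.58.1), other scalings and filters and each library left out were alternatives. Known changes put into simulated counts were used to test the edgeR fit. It recovered 23.9% of changes of 0.5 on the log2 scale, 74.6% of those of 1 and 95.5% of those of 2. Of its 137 calls, 8 were false. Groups came from the genotype label, and library numbers from accession order. No 2 libraries agreed within sampling noise (chi-square per degree of freedom 32.3 to 162). Lists were described by counts and medians, without a list test. Single-library values were given for all members past 0.05 and, per role group, for the smallest p and highest CPM, for others after their values were seen. Wider lists named the genes that passed or, with none, the 2 of smallest p. Marker lists were given by their sums, with single markers only for T and NK cells and where a marker was at 0 in all libraries. Older symbols were matched by RefSeq synonyms. All values rest on 37023586 to 48172863 counts a library.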

Additional observations from a re-analysis of the deposited data

How the results depend on the processing

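Of 442 member values under alternatives, 429 kept their direction and their side of the threshold, and 20 of the 21 mitotic genes lay below 0 under every alternative fit run. DESeq2 called 1205 genes in all (771 higher, 434 lower), so that 7.98% passed against 2.55%, and edgeR called from 0 (without Sost+/+ replicate 1, with 2262 at an unadjusted p under 0.05) to 349 (without Sost-/- replicate 1) with a library left out, among them 118 without Sost+/+ replicate 3, 218 without Sost-/- replicate 2 and 10 without Sost-/- replicate 3. Mitotic members called went from 1 to 0 without any 1 library, where Cdc20 lay between -0.87 and -0.73. Other mitotic genes called were 2 without a filter, 4 by DESeq2 (2 higher, Anln and Cdc25b, and 2 lower, Nek2 and Tubb4b) and 0 to 1 with a library left out. With CPM of unscaled totals the median of all tested genes shifted by 0.12 on the log2 scale. The log2 ratio of summed S-phase levels then turned from -0.06 to 0.061 and that of mitotic levels went from -0.37 to -0.24, with 103 CPM in the lowest Sost+/+ and 99.1 in the highest Sost-/- library, and 19 of 21 mitotic genes lower. Signs turned for genes near 0 with a library left out, where Mcm5 ran from -0.045 to 0.143 (also -0.04 without Sost+/+ replicate 1), Mcm7 from -0.132 to 0.036 (0.02 without Sost+/+ replicate 2), Gins2 from -0.15 to 0.277, Plk1 from -0.12 to 0.393 and the S-phase median from -0.098 to 0.036 (without Sost-/- replicate 1). The cause was not tested. No paired analysis was possible because the labels give the 2 groups no shared replicate numbers. Ccnb1, Bub1, Plk1, Aurka, Aurkb, Ube2c, Cdc6 and Ccne1 had under 100 counts in every library. The part of depth in their error was not tested.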
